A study of Mus musculus with 47 samples.

Results

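The 43 genes described here encode secreted and membrane-bound proteases of the extracellular matrix and their inhibitors. They were listed by name as 21 Mmp genes, 19 Adamts genes and 3 Timp genes, out of 21418 autosomal protein-coding genes of the mm9 annotation. The list is defined by gene family and not by a threshold on these data, although it was proposed with earlier results of the data known. Chromatin from livers of 7 week old mice was examined by ChIP-seq for 3 histone marks. Control livers were Ezh2 f/f (floxed, with no Cre named) and double knockout (DKO) livers were Ezh1-/-, Ezh2 f/f and Alb-Cre positive, with males and females of each. The sample records list 47 liver samples, 4 for each sex, genotype and mark but 3 for H3K4me1 of DKO females. The reads of a group were pooled before peaks were called, so that each group has 1 list of regions for each mark and no list has a replicate. Alb-Cre deletes Ezh2 in hepatocytes, whereas Ezh1 is absent from every cell, and Ezh2 is presumed intact in the other liver cells.

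Matrix metalloproteinases (Mmp) are zinc enzymes, made as inactive precursors, that cleave collagens and other matrix and surface proteins. The Adamts enzymes are related zinc proteases with thrombospondin repeats that trim procollagens, aggrecan and versican, fibrillin-associated proteins or von Willebrand factor, and the Timp proteins block both families by binding the active site. In liver these genes are known mainly from stellate cells, endothelial cells and macrophages, and their balance sets how scar matrix is laid down and removed in fibrosis. H3K27me3 is the repressive mark deposited by Ezh1 and Ezh2 within PRC2, H3K27ac marks active enhancers and promoters, and H3K4me1 marks enhancers whether active or poised.

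The H3K27me3 lists held 15603 to 19796 regions with median widths of 23600 to 31600 bp, on a grid of 400 bp. They covered 766 Mb in control male, 750 Mb in DKO male, 728 Mb in control female and 707 Mb in DKO female liver. Coverage is a share of bases inside called regions and not an amount of the mark. H3K27me3 gained or lost refers below to this coverage. The authors cite H3K27me3 as globally reduced in DKO hepatocytes at a later age. They state that their sequencing may underestimate the loss at some sites. The H3K4me1 lists held 51417 to 69797 peaks. The H3K27ac list of control male liver was the shortest, with 29359 peaks beside 49702 to 55930 in the other three. Read depth is not known from the sources used here, and a mark called over a larger share of a gene cannot be told apart from a mark carried by more of the liver's cells. All differences below are between single lists and none was tested against liver-to-liver spread. H3K27me3 covered 0% of Ezh2 in every list and H3K27ac was present at its start in every list, but the mark lists do not check the deletion. Ezh1 was covered over 1.63% of its span in control male, 53.1% in DKO male, 0% in control female and 53.1% in DKO female liver. Of 8 hepatocyte marker genes, 4 had an H3K27ac peak within 1 kb of the start in control male liver and 7 in each other group, and of 8 Kupffer cell markers 0 did in any list.

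Most of the protease genes lay in H3K27me3 chromatin in control liver. At least 50% of the gene span was inside H3K27me3 regions for 27 of the 43 genes in control male liver, 25 in DKO male, 24 in control female and 21 in DKO female liver. Over all autosomal protein-coding genes the shares were 31.2%, 33.9%, 27.9% and 27.1%, so that the percentages for the proteases, 62.8% and 58.1% in males and 55.8% and 48.8% in females, were higher in each list. A list of 45 other matrix turnover genes, described further on, had 55.6%, 62.2%, 55.6% and 53.3%, so that such coverage was not particular to the 43 genes. The median coverage of the 43 genes was 85.1% in control male, 77.3% in DKO male, 62.5% in control female and 41.0% in DKO female liver, where the median over all genes was 0% in each list. In control male liver 12 of 21 Mmp, 12 of 19 Adamts and 3 of 3 Timp genes were covered to this extent. A set of 9 genes, namely Mmp2, Mmp8, Mmp9, Mmp17, Mmp23, Mmp25, Mmp28, Timp4 and Adamts8, were covered over 100% of their span in all 4 lists, and Mmp3, Mmp10, Mmp12, Mmp13, Mmp19, Mmp21 and Adamts6 were at 0% in all 4. These were 20.9% and 16.3% of the 43 genes, beside 12.8% and 43.3% of all genes.

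**Figure D1:**
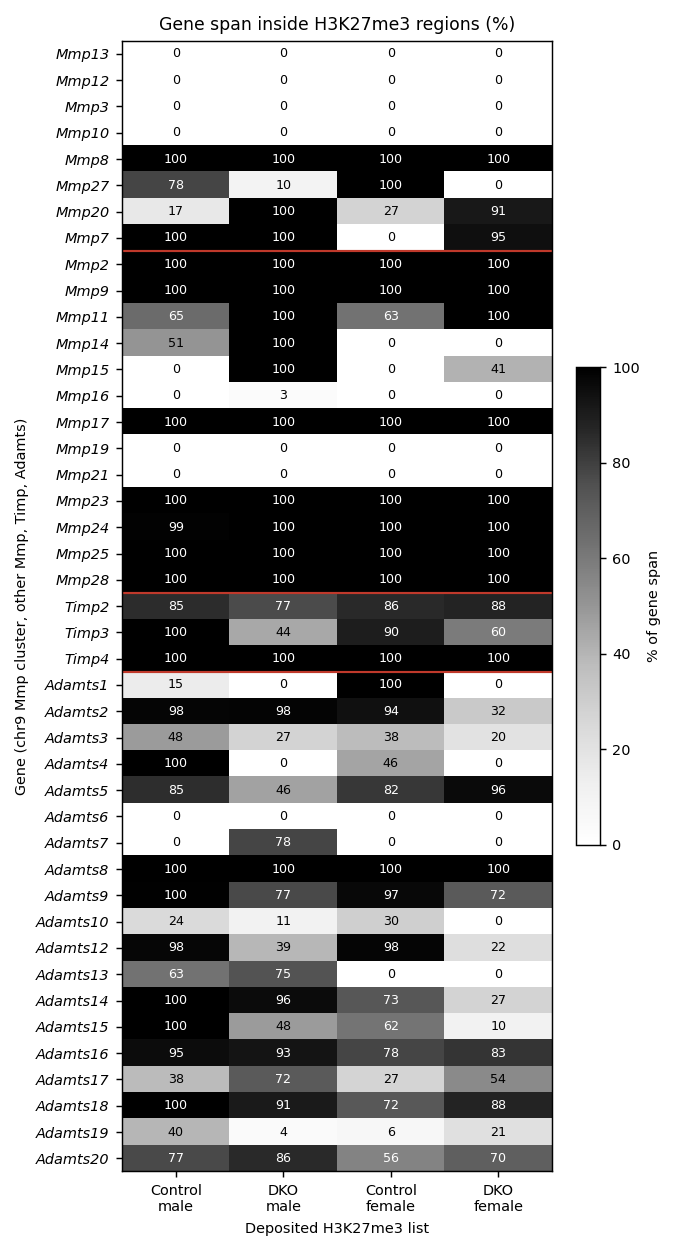
Percent of each gene's span inside H3K27me3 regions for the 43 genes (rows, in 4 blocks separated by red lines) in the 4 deposited lists (columns). Each cell is 1 list without a replicate, and genes at 100% or 0% in every list stand beside genes such as Adamts4 and Mmp15 that switch between control and DKO liver.

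Coverage changed in both directions in DKO liver. In males 7 of the 43 genes fell by at least 25 percentage points and 6 rose by as much, where 6.29% of all genes fell and 10.3% rose. In females 10 fell and 5 rose, where 7.62% of all genes fell and 6.56% rose. A fall in both sexes was seen for 5 genes (Timp3, Adamts4, Adamts12, Adamts15 and Mmp27) and a rise in both for 4 (Mmp11, Mmp15, Mmp20 and Adamts17), where 2.90% of all genes fell and 3.47% rose in both. Within 2 kb of the start 3 genes fell in males and 4 in females (6.41% and 8.46% of all genes), so that the counts of falls were near those shares there. The fall was carried by Adamts genes, with 5 of the 7 in males and 8 of the 10 in females, and the rise by Mmp genes, with 4 of the 6 and 4 of the 5. Between lists of one genotype, which differ in sex, 9 of the 43 genes differed by at least 25 points between the control male and control female lists (9.04% of all genes), and 8 between the DKO male and DKO female lists (13.5% of all genes).

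**Figure D2:**
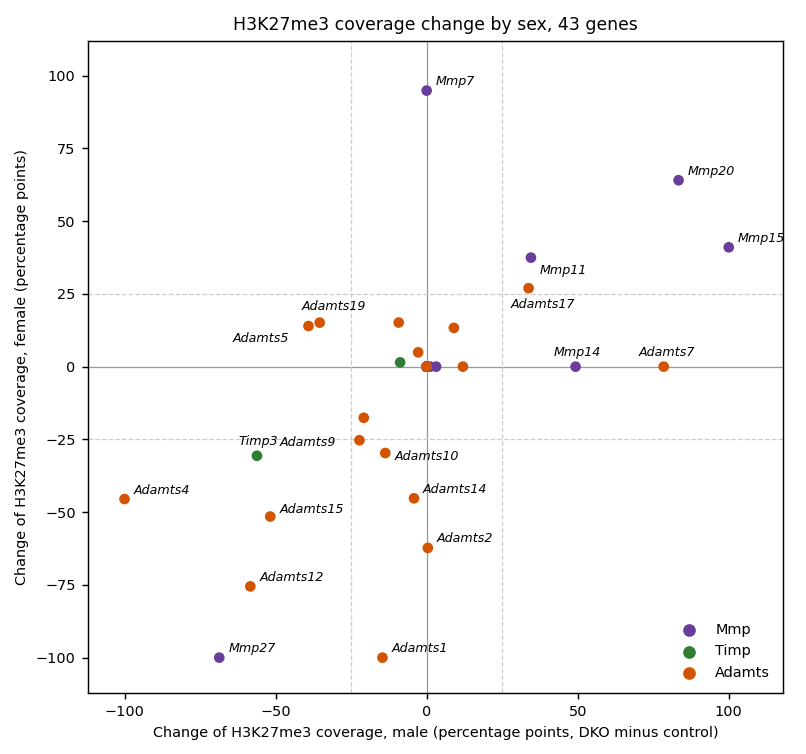
Change of H3K27me3 coverage in percentage points, DKO minus control, in males (x axis) and females (y axis), 1 point per gene coloured by family. Dashed lines mark 25 points, and named genes lie beyond them in at least 1 sex, with Adamts4, Adamts12, Adamts15, Timp3 and Mmp27 beyond both lines at lower left, Mmp11, Mmp15, Mmp20 and Adamts17 at upper right, and Adamts5 and Adamts19 lower in males and higher in females.

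Among the inhibitors, H3K27me3 coverage of Timp3 fell in both sexes, whereas that of Timp2 and Timp4 changed little. Timp3 (chr10:85763117-85812251), the matrix-bound inhibitor that also blocks several Adamts enzymes, was covered over 100% of its 49135 bp in control male, 43.8% in DKO male, 90.2% in control female and 59.6% in DKO female liver. Both knockout lists were below both control lists. The whole gene lies inside the span of Syn3 on the opposite strand, so that these bases belong to both genes. In control male liver a single region of 90000 bp (chr10:85727201-85817200) spanned Timp3. In DKO male liver regions remained over the first 22.2% and the last 21.7% of the gene, with a gap between them. H3K27ac peaks within 10 kb of Timp3 numbered 1 in control male, 3 in DKO male, 4 in control female and 3 in DKO female liver. The peaks gained in males lay 358 bp and 31321 bp downstream of the start, and control female liver had peaks near both positions, so that the control male list was the one without them.

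Timp2, which inhibits Mmp2 and also takes part in its activation, was covered over 85.4%, 76.6%, 86.1% and 87.6% of its span in control male, DKO male, control female and DKO female liver. Its H3K27ac peaks numbered 0, 2, 3 and 2 in the same order. Timp4, which lies wholly within the span of Syn2 on the opposite strand, stayed at 100% in each list and had a single H3K27ac peak, in DKO male liver. The region over it was 148400 bp wide in control male, 65200 bp in DKO male, 66800 bp in control female and 68000 bp in DKO female liver. Coverage of this gene of 6234 bp cannot show a change of the region beyond its ends.

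Of the Adamts enzymes that cleave aggrecan and versican, Adamts4 and Adamts15 lost H3K27me3 in both sexes. Adamts4 (chr1:173180552-173190768), a major aggrecanase, was covered over 100% of its span in the control male list and 45.5% in the control female list and was at 0% in both knockout lists. Adamts15 was at 100% in control male, 48.2% in DKO male, 62.0% in control female and 10.5% in DKO female liver. Its divergent neighbour Adamts8, whose start lies 20109 bp away, stayed at 100% in every list. In each list a single region held all of Adamts8 and the start of Adamts15, 100800 bp wide in control male, where it covered both genes, and 66800 bp in DKO male liver, and 69600 bp in control female and 52800 bp in DKO female liver. In the last list (chr9:30727601-30780400) it reached over only the first 10.5% of Adamts15.

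Adamts1, a versicanase, and Adamts5, the other major aggrecanase, lie 55056 bp apart on chr16 and behaved differently. Adamts1 was covered over 14.6% of its span in the control male list and 100% in the control female list and was at 0% in both knockout lists, so that it fell by 14.6 points in males and fell by 100 points in females. With 3 kb added on each side of the gene it fell by 28.5 points in males, past the threshold. Adamts5 was at 85.1% in control male and 46.0% in DKO male liver, but at 82.3% in control female and 96.3% in DKO female liver. Adamts9, which cleaves versican and aggrecan, was covered over 99.5%, 77.3%, 97.0% and 71.7% of its 170794 bp in control male, DKO male, control female and DKO female liver. Coverage fell by 22.2 points in males, under the threshold, and fell by 25.3 points in females, where it fell by 24.4 points with 3 kb added on each side of the gene, also under the threshold. Adamts20 rose by 9.01 and 13.3 points, from 77.1% and 56.4% in the control male and female lists.

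Adamts12 (chr15:10994545-11276622) lost H3K27me3 over long stretches in both sexes. This protease, which cleaves cartilage oligomeric matrix protein, was covered over 97.6% of its 282078 bp in the control male list and 97.7% in the control female list, and over 39.2% and 22.2% in DKO male and female liver. In each control list a region of about the same extent (172000 bp in males and 172400 bp in females) ran from upstream of the start into the gene, followed by a second region. In DKO male liver 4 regions of 22400 to 37200 bp were left and in DKO female liver 2 regions, of 24400 and 50800 bp. The start of the gene remained inside a region in all 4 lists. H3K27ac peaks within 10 kb numbered 0, 4, 3 and 4 in control male, DKO male, control female and DKO female liver. The peak called at the start and the pair of intronic peaks 214605 bp and 215386 bp downstream of it in DKO male liver had overlapping peaks in control female liver, and the peak 126142 bp downstream of the start was called only in the DKO lists. That intronic peak lay inside H3K27me3 in both control lists and outside it in both knockout lists. Its sequence is shown because it is the single position near the 43 genes where H3K27ac was gained in both sexes over bases from which H3K27me3 was lost in both. The 242 bp shared by the male and female peaks (mm9, plus strand, chr15:11120566-11120807) have CpG dinucleotides in capitals:
Adamts12 intronic peak: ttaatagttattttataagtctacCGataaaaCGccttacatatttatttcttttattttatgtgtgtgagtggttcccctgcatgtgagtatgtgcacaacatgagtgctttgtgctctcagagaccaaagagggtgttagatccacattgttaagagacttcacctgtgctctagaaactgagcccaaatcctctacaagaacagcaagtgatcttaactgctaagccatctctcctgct
It holds 2 CpG dinucleotides and has a GC content of 39.7%. Adamts7, which cleaves the same substrate, moved the other way in males. It was at 0% in both control lists and in DKO female liver and at 78.5% in DKO male liver, through a region of 38000 bp over its start.

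**Figure D3:**
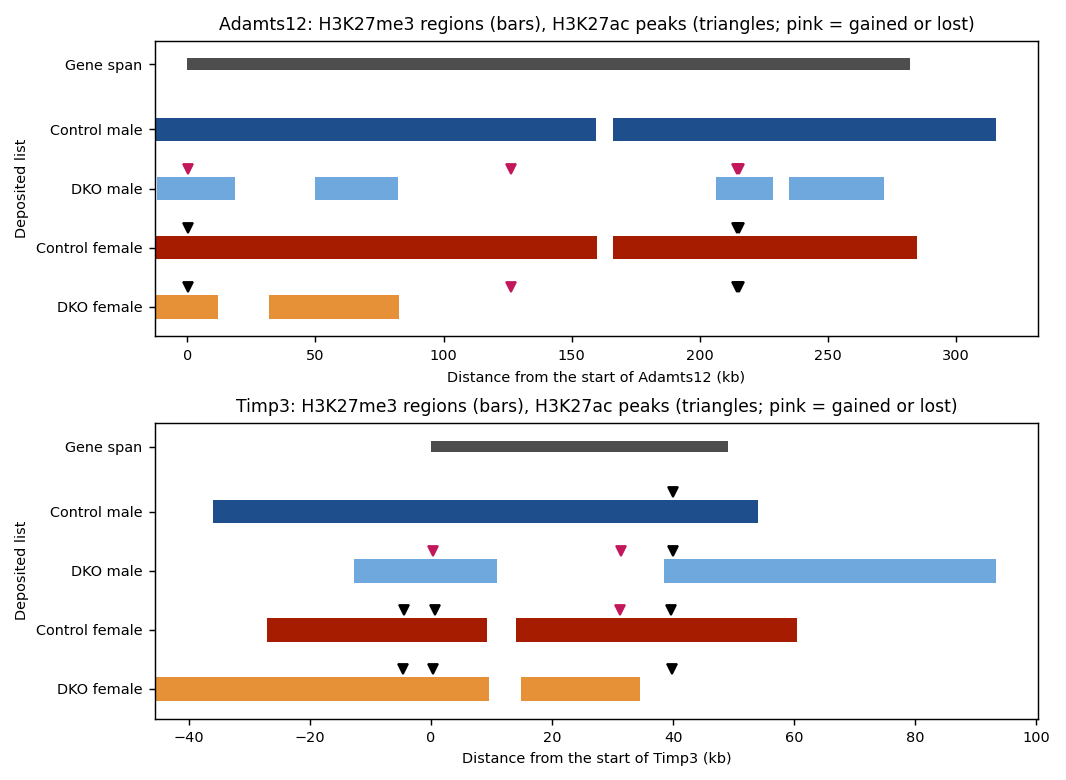
H3K27me3 regions (bars) and H3K27ac peaks (triangles, pink where gained or lost against the other genotype of the same sex) along Adamts12 and Timp3, in kb from the start of each gene, for the 4 lists. Adamts12 lies under 2 long regions in each control list and under 4 (male) or 2 (female) shorter ones in DKO liver, Timp3 goes from 1 to 2 regions in males and has 2 in both female lists, and the start of each gene is inside a region in each list.

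The procollagen N-propeptidases Adamts2 and Adamts14, which trim fibrillar procollagens, lost H3K27me3 in females only. Adamts2 was covered over 97.9% of its 205490 bp in control male, 98.3% in DKO male, 94.2% in control female and 31.9% in DKO female liver. H3K27ac peaks within 10 kb of Adamts2 numbered 1, 2, 1 and 6 in the same order, and H3K4me1 peaks 5, 12, 7 and 9. Adamts14 was covered over 100%, 95.8%, 72.7% and 27.5%. Its H3K27ac peaks numbered 1, 6, 3 and 2, so that the added peaks were in males and the lost H3K27me3 in females. Adamts3, the third of this group, had 48.3%, 27.5%, 37.8% and 20.2% and fell by less than 25 points in each sex. The difference between sexes was not tested for any of them.

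The remaining Adamts genes varied. Adamts10, linked to fibrillin microfibrils, was covered over 24.3%, 10.6%, 29.7% and 0% of its span in control male, DKO male, control female and DKO female liver. Adamts17, the longest of the 43 genes at 312891 bp, rose from 37.9% to 71.6% in males and from 27.2% to 54.1% in females. Adamts19 was at 39.6% and 4.23% in control and DKO male liver and at 5.89% and 21.0% in the female lists, so that the sexes moved in opposite directions. Adamts13, the von Willebrand factor protease that liver stellate cells make, was at 62.6% and 74.6% in the male lists and 0% in both female lists. Adamts16 and Adamts18 stayed between 72.4% and 100% in every list, and Adamts6 was at 0% throughout with H3K27ac at its start in each list.

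Outside the chr9 cluster, 3 Mmp genes changed, and the H3K27me3 coverage of each rose. Mmp15 and Mmp14 encode membrane-type enzymes, and Mmp14 cleaves collagen and activates pro-Mmp2. Mmp15 (chr8:97876168-97898193) was at 0% in both control lists, 100% in DKO male and 41.0% in DKO female liver. Mmp14 was at 50.7% in control male and 100% in DKO male liver and at 0% in both female lists. Mmp11, stromelysin 3, rose from 65.3% to 99.8% in males and from 62.5% to 100% in females. Each of the 3 had an H3K27ac peak within 1 kb of its annotated start in all 4 lists. Chchd10 on the opposite strand overlaps 2153 bp (14.6%) of Mmp11, so that these bases belong to both genes. The RefSeq start of Mmp11 lies 5431 bp further downstream, inside H3K27me3 in all 4 lists and with no H3K27ac peak within 1 kb, so that the description of its start depends on the annotation.

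The gelatinases Mmp2 and Mmp9, which cleave denatured collagen and basement membrane, stayed at 100% in each list, as did Mmp17 and Mmp25, which are held at the membrane by a lipid anchor, and Mmp23 and Mmp28. Mmp24, another membrane-type enzyme, was between 98.8% and 100%. Mmp19 and Mmp21 were at 0% throughout. Mmp16 reached 3.14% in DKO male liver and was at 0% in the other lists. In all, 24 of the 43 genes changed by less than 25 points in both sexes, with changes between -20.8 and 15.2 points. That is 55.8% of them, beside 76.8% of all genes.

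The Mmp cluster on chr9 (chr9:7272514-7699585, 427072 bp) holds 8 of the genes, in the order Mmp13, Mmp12, Mmp3, Mmp10, Mmp8, Mmp27, Mmp20 and Mmp7, each on the plus strand. They encode the collagenases Mmp13 and Mmp8, the macrophage elastase Mmp12, the stromelysins Mmp3 and Mmp10, the tooth enamel protease Mmp20, the matrilysin Mmp7 and the little-studied Mmp27. H3K27me3 covered 15.5% of the block in control male and 27.3% in DKO male liver, and 9.55% in control female and 25.1% in DKO female liver. With 50 kb added on each side the values were 12.7%, 22.2%, 9.64% and 20.3% in the same order. A larger share of the block was thus inside called H3K27me3 regions in the knockout list of each sex.

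The mark was confined to the later part of the block in each list. Mmp13, Mmp12, Mmp3 and Mmp10 were at 0% in every list, and Mmp8 was at 100% in every list. Mmp27, whose start lies 2909 bp beyond the end of Mmp8, was covered over 78.2% in control male and 9.58% in DKO male liver, and over 100% in control female and 0% in DKO female liver. With 3 kb added on each side of Mmp27 the change was -43.7 points in place of -68.6 in males. In females it was -75.2 points in place of -100. The region over Mmp8 ended at position 7579600 in control male and 7572400 in DKO male liver, and at 7582000 and 7569600 in the female lists. Its downstream edge thus lay before most or all of Mmp27 in the knockout lists.

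Mmp20 moved the other way in both sexes, and Mmp7 in females. A rise of Mmp7 in males could not be seen, since the gene was already at 100% in control male liver. Mmp20 was covered over 16.6% of its 46738 bp in control male, 100% in DKO male, 27.4% in control female and 91.4% in DKO female liver. Mmp7 was at 100% in both male lists, 0% in control female and 94.9% in DKO female liver. Both knockout lists also held a region between Mmp27 and Mmp20 (chr9:7592001-7609600 in males and chr9:7592801-7609600 in females) that neither control list held. Loss over Mmp27 and gain over Mmp20 were therefore found in both sexes within the same cluster.

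**Figure D4:**
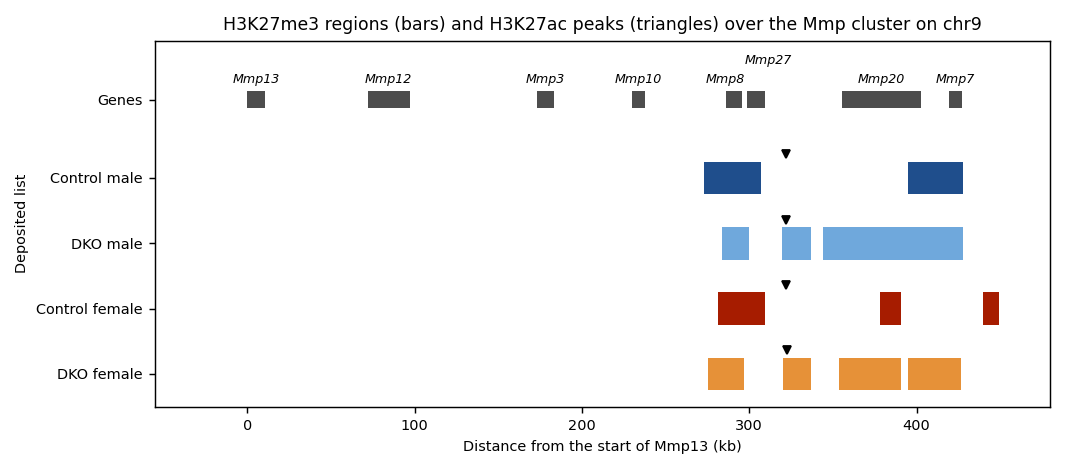
The chr9 Mmp cluster in kb from its first base, with the 8 genes as grey bars and, for each of the 4 groups, H3K27me3 regions as coloured bars and the H3K27ac peak as a triangle. H3K27me3 is called over Mmp8 in every list, recedes from Mmp27 in the DKO lists and extends there over Mmp20, whereas the first 4 genes carry no region.

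Active marks were nearly absent from the cluster. Each of the 4 H3K27ac lists and each of the 4 H3K4me1 lists had a single peak in the block, all at the same place 12735 to 13080 bp beyond the end of Mmp27. This intergenic position lay inside the H3K27me3 region that was called only in the knockout lists, while its H3K27ac and H3K4me1 peaks were called in control and knockout liver alike. No H3K27ac or H3K4me1 peak lay within 10 kb of any of the 8 genes, and outside the block the nearest peak was at least 85619 bp before and 63647 bp after it. Mmp16 was the only other gene of the 43 with neither mark within 10 kb in any list, a state found for 19.7% of all genes.

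The promoters of the cluster differed in sequence from those of the other genes. RefSeq promoter sequences of the GRCm38.p6 table, from 250 bases before to 50 after the start, were matched for 29 of the 43 genes and located in mm9 by exact match. The genes without an entry were Mmp2, Mmp9, Mmp16, Mmp17, Mmp19, Adamts4, Adamts5, Adamts6, Adamts7, Adamts8, Adamts10, Adamts15, Adamts16 and Adamts19. The median number of CpG dinucleotides in 300 bases was 1 in the 8 cluster genes, with a range of 0 to 4, 19 in the 8 other Mmp genes, 23.5 in 10 Adamts genes and 24 in the 3 Timp genes, and 13 over 17492 protein-coding genes. Mmp21, Adamts13 and Timp4, outside the cluster, each had 2 and lay within its range. An AP-1 motif, searched as TGANTCA on both strands, was found in 5 of the 29 promoters (17.2%) and in 7.08% of all. The TATA box letters, searched as TATAAA on both strands, were found in 8 of the 29 (27.6%) and in 13.3% of all. The letters of these motifs did not overlap. Both motifs were present in 5 of the 8 cluster promoters, where 1.59% of all promoters held both, and the AP-1 letters were in 0 of the 21 matched promoters outside the cluster. Of the other cluster promoters, Mmp8 held TATAAA only, and Mmp12 and Mmp27 held neither motif. The last 150 bases before the start of the 5 cluster genes with both motifs are shown, with the motif letters in capitals. They lie in mm9 on the plus strand at chr9:7445672-7445821 (Mmp3), chr9:7691940-7692089 (Mmp7), chr9:7502192-7502341 (Mmp10), chr9:7272364-7272513 (Mmp13) and chr9:7628081-7628230 (Mmp20):
Mmp3: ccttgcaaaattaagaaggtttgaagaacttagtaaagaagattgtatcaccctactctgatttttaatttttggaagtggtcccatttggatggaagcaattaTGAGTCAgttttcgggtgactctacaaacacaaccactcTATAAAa
Mmp7: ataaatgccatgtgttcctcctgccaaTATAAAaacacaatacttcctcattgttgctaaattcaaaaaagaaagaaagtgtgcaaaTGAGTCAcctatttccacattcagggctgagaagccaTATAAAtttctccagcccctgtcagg
Mmp10: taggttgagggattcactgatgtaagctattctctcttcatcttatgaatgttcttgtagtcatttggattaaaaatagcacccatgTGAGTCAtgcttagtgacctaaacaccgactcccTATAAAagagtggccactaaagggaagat
Mmp13: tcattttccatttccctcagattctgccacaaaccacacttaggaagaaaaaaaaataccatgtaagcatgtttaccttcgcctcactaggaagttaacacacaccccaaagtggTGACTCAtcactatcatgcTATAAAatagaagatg
Mmp20: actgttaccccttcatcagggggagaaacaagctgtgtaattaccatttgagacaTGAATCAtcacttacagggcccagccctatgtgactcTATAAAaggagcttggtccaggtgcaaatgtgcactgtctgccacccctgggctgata
The first base of the AP-1 motif lay 46 bp before the start in Mmp3, 63 bp in Mmp7 and Mmp10, 35 bp in Mmp13 and 95 bp in Mmp20. The first base of TATAAA lay 7 bp before the start in Mmp3, 123 bp and 26 bp in Mmp7, 29 bp in Mmp10, 16 bp in Mmp13 and 58 bp in Mmp20. A match describes letters and not a bound factor, and H3K27me3 was absent from the first 3 of these promoters in their order along the chromosome (Mmp13, Mmp3 and Mmp10) in every list.

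Across the 43 genes the start was inside an H3K27me3 region for 30 genes in control male, 33 in DKO male, 28 in control female and 28 in DKO female liver, beside 36.0%, 40.7%, 33.8% and 32.6% of all genes. The start was inside a region in all 4 lists for 24 genes (25.5% of all genes), and 9 of these 24 changed in coverage by at least 25 points in either sex, beside 20.6% of the 5464 such genes overall. Where coverage fell, the start often kept its region. Of 7 genes that fell in males, each with its start in a region in control liver, 6 still had the start in a region in DKO liver, and of 10 that fell in females 6 did. Among all fallen genes whose start was in a region in control liver the shares were 37.4% (424 of 1134) in males and 30.5% (410 of 1345) in females. The fallen proteases were longer, with a median span of 42956 bp in males and 39357 bp in females beside 18864 bp and 15472 bp for all fallen genes, and the part of length in this was not tested. The genes that lost the mark at the start in a sex in which they fell, and kept it in no such sex, were Adamts1, Adamts4 and Adamts10.

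The 16 matched promoters of genes with the annotated start in a region in all 4 lists had a median of 23 CpG in 300 bases, with a range of 2 to 44. Low values among them were those of Timp4 (2), Mmp8 (4) and Adamts12 (7). The 5 with the annotated start in no region in any list, 4 of them in the chr9 cluster, had a median of 1. CpG was counted at the RefSeq start. That of Mmp11, with 19 CpG, lies inside H3K27me3 in all 4 lists, but Mmp11 is not among the 16. That of Adamts20, with 41 CpG, lies 61068 bp from the annotated start and is also inside H3K27me3 in all 4 lists. Adamts1, the matched gene whose start lost the mark in both sexes, had 18. The 250 bases before the start of Timp3 (mm9, chr10:85762907-85763156, plus strand) and Adamts14 (mm9, chr10:60736168-60736417, minus strand) are shown as CpG-rich examples of starts inside H3K27me3 in all 4 lists in genes whose coverage fell, with CpG in capitals:
Timp3: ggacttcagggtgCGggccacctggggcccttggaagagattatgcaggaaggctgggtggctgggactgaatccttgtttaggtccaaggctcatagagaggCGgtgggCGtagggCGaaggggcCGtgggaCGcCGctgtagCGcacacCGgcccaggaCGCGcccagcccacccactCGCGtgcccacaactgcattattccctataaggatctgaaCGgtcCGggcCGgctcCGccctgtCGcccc
Adamts14: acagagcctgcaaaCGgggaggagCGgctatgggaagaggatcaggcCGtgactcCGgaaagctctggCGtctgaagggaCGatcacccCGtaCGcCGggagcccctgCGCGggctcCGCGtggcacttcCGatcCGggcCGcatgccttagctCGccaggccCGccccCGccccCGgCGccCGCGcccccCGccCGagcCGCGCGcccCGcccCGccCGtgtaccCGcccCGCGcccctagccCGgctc
They hold 18 and 35 CpG dinucleotides, respectively.

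H3K27ac was called at more of the protease starts in DKO male than in control male liver. A peak lay within 1 kb of the start for 9 of the 43 genes in control male, 19 in DKO male, 17 in control female and 20 in DKO female liver, beside 45.6%, 52.6%, 51.6% and 52.2% of all genes. Starts that were inside H3K27me3 and also had H3K27ac numbered 3, 15, 11 and 15 in the same order (6.98%, 34.9%, 25.6% and 34.9%), beside 7.92%, 17.8%, 10.9% and 11.9% of all genes. The control male list stands apart from the other three here, and it is also the shortest H3K27ac list. Of the genes whose coverage rose, 4 of 6 in males and 3 of 5 in females had H3K27ac at the start in control liver, beside 1337 of 2202 and 774 of 1406 of all genes that rose. Of the genes whose coverage fell the counts were 0 of 7 and 5 of 10, beside 467 of 1348 and 802 of 1633.

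Within 10 kb of the gene span, 28 of the 43 genes gained an H3K27ac peak in DKO males, that is, a peak overlapping no control peak of the same sex, and 3 lost one. The shares over all genes were 48.6% and 9.81%. In females 15 gained and 17 lost a peak, where 29.5% of all genes gained and 32.6% lost one. A longer gene gives a wider window for peaks of either mark. The median span was 25119 bp for the 43 genes and 15535 bp for all genes, and the part of length in these counts was not tested. Peaks near the 43 genes summed to 39 in control male, 98 in DKO male, 84 in control female and 93 in DKO female liver. The sums over all genes were 33762, 57307, 52695 and 53710 in the same order, so that the control male sum was the lowest there too. A control female peak without a control male counterpart was present at 23 of the 43 genes (44.8% of all genes), and the converse at 5 (9.90% of all genes). Of the 60 peaks gained in males 37 overlapped a control female peak. Counting only the 23 that overlapped a peak of neither control list, 15 genes gained in males, where 32.9% of all genes did. In females 28 of the 29 gained peaks overlapped neither, at 14 genes, where 28.2% of all genes had one. With equal numbers of the widest peaks from each list, 13 genes gained in males, where 23.6% of all genes did.

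**Figure D5:**
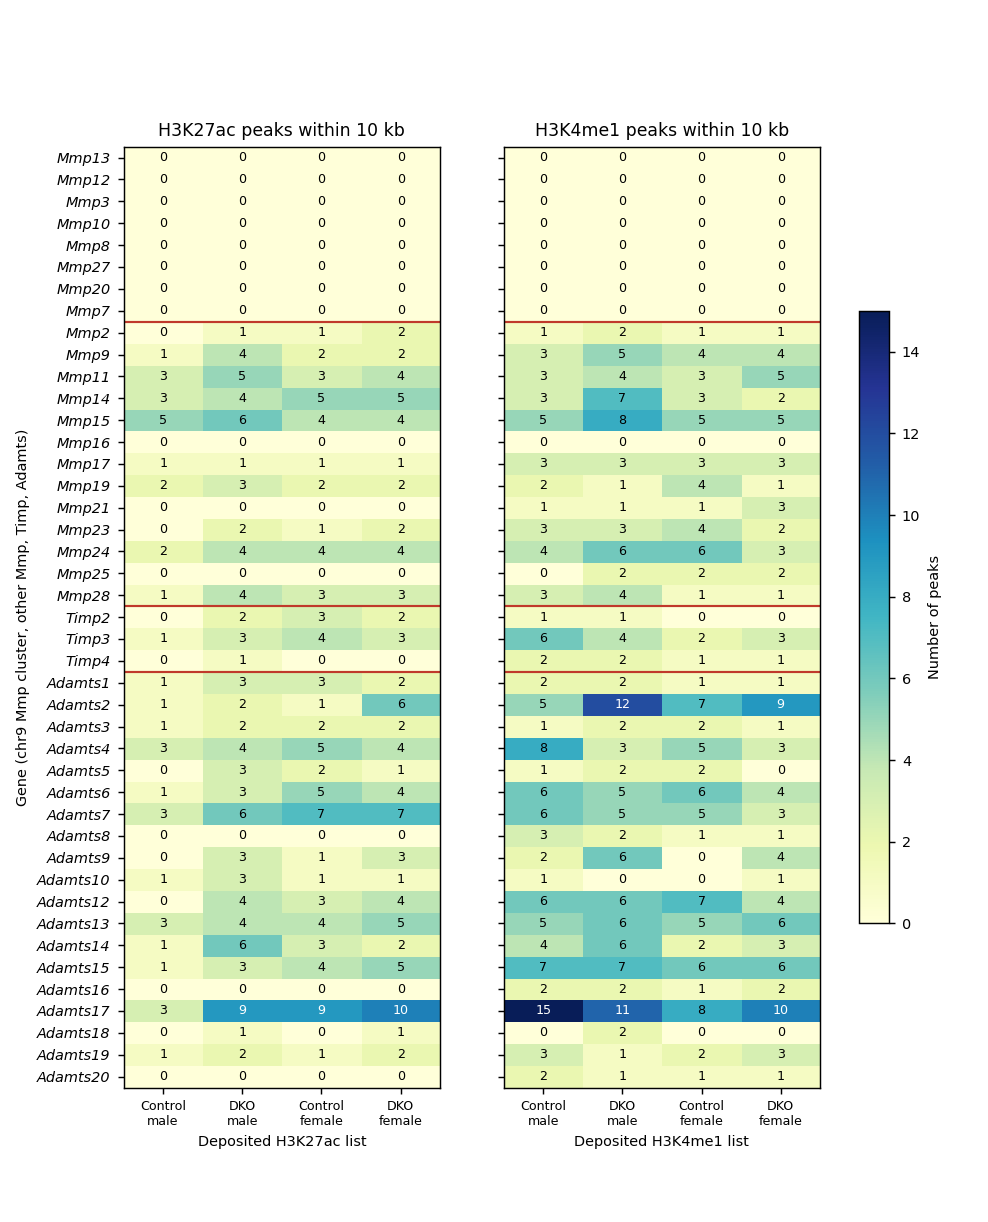
Number of H3K27ac and H3K4me1 peaks within 10 kb of each gene (rows) in the 4 lists of each mark (columns), 1 list per group without a replicate. The control male H3K27ac column is the emptiest, with 39 peaks in sum, and the 8 genes of the chr9 cluster are at 0 for both marks.

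A gain in both sexes was found for 15 genes (34.9%), and 13 more (30.2%) gained in males only. Over all genes 24.7% gained in both sexes and 23.9% in males only. Among the inhibitors it was Timp2, with the counts given above. Among the Mmp genes, Mmp2 had 0, 1, 1 and 2 peaks and Mmp23 had 0, 2, 1 and 2 in control male, DKO male, control female and DKO female liver, although both stayed fully covered by H3K27me3. Mmp24 had 2, 4, 4 and 4 peaks, Mmp11 3, 5, 3 and 4, and Mmp14 3, 4, 5 and 5. Among these 5 the control male list had the lowest count or tied for it.

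Adamts12 and Adamts2, described above, were among the 9 Adamts genes that gained in both sexes. Adamts9 had 0, 3, 1 and 3 peaks in control male, DKO male, control female and DKO female liver. Adamts15 had 1, 3, 4 and 5, and Adamts18 had 0, 1, 0 and 1. Peaks near Adamts18 and Adamts9 were thus more numerous in both knockout lists than in both control lists. The same held for Adamts2, Adamts12, Adamts19, Mmp11 and Mmp23. Adamts17 had 3, 9, 9 and 10 peaks, Adamts7 3, 6, 7 and 7, Adamts13 3, 4, 4 and 5, and Adamts19 1, 2, 1 and 2. A loss in both sexes was found for Adamts7, Adamts14 and Adamts17, and 14 more genes lost a peak in females only, where the shares over all genes were 6.94% and 25.6%.

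Of the peaks gained near the 43 genes, 40 of 60 in males and 19 of 29 in females overlapped H3K27me3 of control liver, beside 30.3% of 30041 and 32.3% of 12570 peaks gained over the autosomes. In DKO liver of the same sex 41 of the 60 and 16 of the 29 overlapped H3K27me3, beside 37.3% and 27.4%. Only 7 and 6 of the peaks overlapped it in control but not in DKO liver, beside 7.86% and 11.6%, so that most of these gains were not at positions where H3K27me3 was lost. Gained peaks of both sexes overlapped each other at 8 positions near 7 genes, namely Mmp11, Mmp23, Adamts2, Adamts12, Adamts13, Adamts17 and Adamts18. Such a position was present at 13.8% of all genes, beside 16.3% of the proteases. Of these positions, the one in Adamts18 (chr8:116316669-116317117, intronic) was inside H3K27me3 in all lists but that of DKO male liver. The position at Mmp23, a protease anchored by its signal region, had its midpoint at -607 bp from the start and lay inside H3K27me3 in all 4 lists. Its sequence is shown as a promoter-proximal gain without loss of H3K27me3, for contrast with the Adamts12 intron (mm9, minus strand, chr4:155027983-155028216, CpG in capitals):
Mmp23 upstream peak: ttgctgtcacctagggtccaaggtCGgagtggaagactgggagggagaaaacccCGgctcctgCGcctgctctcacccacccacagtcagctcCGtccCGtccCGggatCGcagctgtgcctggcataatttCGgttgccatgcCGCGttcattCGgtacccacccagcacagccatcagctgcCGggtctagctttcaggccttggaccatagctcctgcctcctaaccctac
It holds 12 CpG dinucleotides and has a GC content of 61.5%. The Mmp23 peak thus lies in CpG-rich sequence and the Adamts12 peak does not.

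For H3K4me1 the counts of gains and losses lay near the shares over all genes, and their order depended on the setting. A peak was gained near 22 of the 43 genes (51.2%) and lost near 19 (44.2%) in males, where 45.5% and 46.3% of all genes gained and lost one. In females 14 (32.6%) gained and 18 (41.9%) lost a peak, where the shares were 40.6% and 47.2%. With peaks of at least the median width, 17 of the 43 gained one in females, where 29.8% of all genes did. In males 15 of the 43 gained a peak that overlapped no peak of either control list, where 38.1% of all genes did. When matched from 50% of the peak, 24 lost one in males, where 53.4% of all genes did. With peaks of at least the median width, 16 lost one in females, where 35.2% did. The order against all genes thus changed with the setting for gains and for losses in both sexes. Peaks summed to 119 in control male, 134 in DKO male, 101 in control female and 98 in DKO female liver, beside 70539, 67713, 56141 and 50886 over all genes. A gain in both sexes was found at 10 genes and a loss in both at 12, where 27.7% and 33.1% of all genes had one. Overlapping positions were gained in both sexes at Mmp15, Adamts1, Adamts2, Adamts9 and Adamts16, 8 positions in all, of which 4 were in Adamts9. Such positions were at 11.6% of the proteases and 11.8% of all genes. Adamts9 had 2, 6, 0 and 4 H3K4me1 peaks in control male, DKO male, control female and DKO female liver. Both knockout lists were above both control lists, and the gene also had more H3K27ac peaks and lower H3K27me3 coverage in them.

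Other genes of matrix turnover were examined in the same way, as a list of 45 genes of Adam and Adamtsl proteins, plasminogen activation, cathepsins, meprins and collagen processing. In males 9 of 45 fell and 9 rose, and in females 7 of 45 fell and 7 rose (15.6% each), above the shares over all genes given above. The proteases had 16.3% falls and 14.0% rises in males and 23.3% and 11.6% in females, and the difference between the lists was not tested. Falls in both sexes were seen for Adam12, Adam19, Adamtsl4, Ctss and Pcolce. Ctss, the elastin-cleaving cathepsin S of immune cells, was at 100%, 0%, 60.8% and 0% in control male, DKO male, control female and DKO female liver. Adamtsl4, a microfibril protein without protease activity, was at 87.4%, 0%, 97.6% and 0%. Pcolce, which enhances procollagen processing, was at 100%, 62.3%, 94.6% and 0%. The membrane proteases Adam12 (69.6%, 25.5%, 55.8% and 24.5%) and Adam19 (67.7%, 28.0%, 64.7% and 15.6%) lost part of their cover. Rises in both sexes were seen for 6 genes of the list.

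Markers of other liver cells moved in the same lists. Among 8 endothelial markers H3K27me3 fell in both sexes at Stab2, Pecam1, Cdh5 and Eng, and an H3K27ac peak lay within 1 kb of the start for 1 in control male, 4 in DKO male, 1 in control female and 6 in DKO female liver. Their summed H3K27ac peaks were 10, 39, 30 and 37 in the same order. Among 8 stellate markers 1 gene, Rgs5, fell in both sexes, H3K27ac was at the start of 1, 1, 2 and 2 genes, and the starts of 8 of 8 were in H3K27me3 in every list. Kupffer cell markers had H3K27ac at 0 of 8 starts, and bile duct markers at 1 of 5, in every list. Neutrophil markers had it at 0, 1, 0 and 1 of 8 starts. H3K27me3 fell at the Kupffer cell markers Timd4 in males and Csf1r in females, rose at the bile duct marker Epcam in females, fell at the neutrophil markers Ngp and Ltf in females and rose at Elane in both sexes. Among 8 hepatocyte markers H3K27me3 rose at 4 in males and 3 in females, with Hnf4a at 0%, 89.1%, 0% and 71.0%, and it fell at 1, Cyp2e1, which was at 100%, 0%, 100% and 100%. The part of any cell type in the protease results was not tested.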

How the data were processed

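ChIP-seq of H3K27me3, H3K27ac and H3K4me1 gave 12 region lists from 47 mouse liver samples. The authors pooled the reads of a group's livers, aligned them to mm9 and called broad H3K27me3 regions and narrow peaks of the other marks. The submitters' processing notes name Bowtie2 2.3.2, SICER 1.1 and MACS2 2.1.1. The deposited lists were used for their positions only, with no read counts, so that depth and precision are unknown.

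Gene spans came from GENCODE M1 (NCBIM37, identical to mm9). Coverage is the percent of a gene span inside regions. A gene counted as covered from 50%, as changed from 25 points, and peaks were counted within 10 kb and matched by 1 bp of overlap. With 1 list per group no test was made. The scripts (Python 3.11.15, NumPy 2.4.6, matplotlib 3.10.9) were tested on simulated data. Values in each list are given for genes that changed, for those that gained H3K27ac in both sexes and for the cluster. The genes, the comparison lists and this rule were chosen with earlier results of these data known. Promoter sequences are from RefSeq. For H3K4me1 in DKO females the labels give 3 livers and the methods 4, and which of these the pooled list holds is not known.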

Additional observations from a re-analysis of the deposited data

Results flagged for a closer look

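Adamts5 and Adamts19 moved in opposite directions in the sexes. H3K27me3 coverage of Adamts5 changed by -39.1 points in males and by 14.0 points in females, DKO minus control. That of Adamts19 changed by -35.4 points in males and 15.1 points in females. Each group has a single pooled list, and the difference between the sexes was not tested.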

How the results depend on the processing

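No paired analysis was possible because each group has 1 pooled list, and no replicate could be left out. Of 80 alternative counts 60 stayed within 1.5 times the value reported. Shares in parentheses are those of all genes under the same setting. Within 2 kb of the start, 3 genes (6.41%) fell in males and 4 (8.46%) in females, in place of 7 and 10. Counting changes from 50 points, 3 (6.53%) rose in males, and 5 (4.58%) fell and 2 (3.51%) rose in females, in place of 6, 10 and 5. For H3K27ac in males, 28 genes with a gain became 13 (23.6%) with equal numbers of the widest peaks, 14 (35.5%) with peaks of at least the median width and 15 (32.9%) when a peak of neither control list overlapped (the last chosen after seeing the data). The 3 genes with a loss became 6 (20.9%) within 50 kb, 6 (12.9%) when matched from 50% of the peak, 7 (22.7%) with equal numbers and 1 (3.63%) with the wider peaks. In females 15 with a gain became 24 (54.2%) within 50 kb, 9 (18.4%) with equal numbers and 9 (18.2%) with the wider peaks. There 17 with a loss became 11 (24.2%) with peaks within 1 kb merged, 9 (21.5%) with equal numbers and 7 (18.7%) with the wider peaks. For H3K4me1, 19 with a loss in males became 12 (36.6%) with the wider peaks, and 14 with a gain in females became 25 (66.0%) within 50 kb. With gene spans extended by 3 kb, 31 of 38 coverage changes moved by less than 10 points and 0 changed sign. The causes were not tested. List length and unknown depth limit each count of gained or lost peaks.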
